A study of Mus musculus with 6 samples.

Results

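Transcripts of 37 genes of macroautophagy, its core machinery and 4 of its cargo receptors, were followed in mouse immature dendritic cells with and without hydrogen peroxide (H2O2). The genes were listed by symbol and matched to the NCBI Gene numbers of the deposited rows, and all 37 had a row among 17567. The cells were grown from marrow of 6-week-old male C57BL/6 mice with no further allele named, in 10% serum with 20 ng/mL GM-CSF and 10 ng/mL IL-4. They were harvested on day 6 and enriched on CD11c beads. The control group had no further agent, and the H2O2 group received 100 µM H2O2 for 24 h. Labels give 3 samples a group, but H2O2 replicate 3 equalled H2O2 replicate 1 in all 17567 values and was counted once with it, which left 3 control and 2 H2O2 libraries. Separate mice or cultures are not stated for the samples of a group, so a p-value covers only how these samples spread, which may be technical spread.

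Macroautophagy encloses cytoplasm in a double membrane and delivers it to the lysosome. The ULK1 kinase complex starts the process, a lipid kinase complex around VPS34 marks the growing membrane, and a ubiquitin-like conjugation system fixes proteins of the Atg8 family (LC3 and GABARAP) to its lipid. Cargo receptors bind both the Atg8 proteins and what is to be degraded. In dendritic cells the pathway also delivers cytosolic antigen to compartments where peptides are loaded on class II molecules. Transcript levels do not measure the activity of the pathway, much of which is set by phosphorylation, lipidation and turnover of the proteins.

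The 5 libraries fell into 2 sets that the treatment does not define. Control replicate 1 and H2O2 replicate 1 (set A) held 1756 and 1608 counts over 4 Y-linked genes, and control replicates 2 and 3 and H2O2 replicate 2 (set B) held 2, 5 and 7, although the labels give male mice. Totals lay between 16232604 and 16672491 counts, and no autophagy gene had under 110 counts in a library. Itgax, which encodes CD11c, was present throughout, whereas markers of B cells summed to at most 3.02 CPM (read count scaled to library size) and those of T cells to at most 0.900. Marker lists moved with the treatment. Markers that fell or rose are those called in edgeR with a term for the set, at an adjusted p of at most 0.05. That fit called 4.61% of all genes lower and 3.93% higher, and without the set term 0 genes were called. The 10 dendritic cell markers summed to 13793 to 14743 CPM in the control libraries and 10870 to 12650 CPM in the H2O2 libraries. Of 9 tested 6 fell, the class II presentation genes Cd74, H2-Ab1, H2-Aa and H2-Eb1 with Flt3 and Zbtb46. Itgax, Irf4 and Ccl22 (the largest part of the sum) were not called. Their log2 changes, H2O2 minus control, were 0.06, -0.06 and -0.21. The 12 genes of dividing cells summed to 484 to 1452 CPM in controls and 317 to 620 CPM under H2O2, where 11 fell. The 8 mast cell and basophil markers summed to 36.2 to 86.4 CPM in controls and 11.5 to 25.3 CPM under H2O2, where 5 fell. Neutrophil and granulocyte markers ranged from 562 to 1199 CPM in controls and from 962 to 1610 CPM under H2O2, but 3 of 10 fell (Mpo, Ctsg and Cxcr2) and 1 rose (Mmp8, the largest part of the sum). Macrophage and monocyte markers ranged from 949 to 1193 CPM and from 1095 to 1410 CPM, where 2 of 9 tested fell (C1qb and C1qc) and 1 rose (Cd68). In bulk RNA, fewer cells of a type and less RNA per cell cannot be told apart, and the part of these shifts in the values that follow was not tested.

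With H2O2, transcripts of the autophagy machinery differed little from the controls. Of the 37 genes, 1 rose (Atg13, a scaffold of the ULK1 complex) and 0 fell at an adjusted p of at most 0.05, in edgeR's quasi-likelihood test with a term for the set and Benjamini-Hochberg adjustment over 12209 genes. Across all genes tested, 3.93% were called higher and 4.61% lower, so 1 of 37 is not above that background. At an unadjusted p under 0.05 there were 7 of the 37 genes, against 27.8% of all genes. A log2 change, H2O2 minus control, was positive for 30 of the 37 genes and for 51.6% of all genes. This count was 29 with DESeq2 size factors and 25 with library totals alone, where Becn1, Atg2a, Atg4d, Atg12 and Map1lc3a turned negative. With library totals alone all genes shifted down as well. The median log2 change there was 0.033 for the 37 genes and -0.06 for all genes, against 0.10 and 0.0089 in the fit above. The share of all genes that were positive is not given for the other scalings.

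Other tests of all 5 libraries called no more of the list, and fits with a library left out, some of which called more, are given further below. Without the set term edgeR called 0 of the 37 genes and 0 of all genes. At an unadjusted p under 0.05 that fit had 2 of the 37 (Atg13 and Atg4c), against 6.99% of all genes. DESeq2 with the set term called 1 of the 37, Uvrag (lower), against 7.5% of the genes it tested. DESeq2 without the term called 0 of the 37, with 2 at an unadjusted p under 0.05, and it called 0.705% of all genes it tested.

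The changes were small. Their median was 0.10 on the log2 scale (0.0089 over all genes), they ran from -0.35 to 0.39, and the median size regardless of direction was 0.11, against 0.17 over all genes. The 95% interval lay within 2-fold either way for all 37 genes, as it did for 84.4% of all genes. It lay within 1.5-fold either way for 33 of the 37, against 65.2% of all genes. The lowest bound of any interval was -0.70 and the highest 0.67. Within the fit with the set term, the intervals bound the change of each transcript without showing that it was 0. They cover only how these samples spread, and intervals without the set term are not given. Both H2O2 libraries lay above all 3 controls for 10 genes (Ulk2, Atg13, Becn1, Pik3r4, Wipi1, Atg4c, Atg7, Map1lc3b, Gabarapl2 and Nbr1), and below them for 1 (Atg16l2). Over all genes, 13% lay above and 10.7% below in this way.

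**Figure D1:**
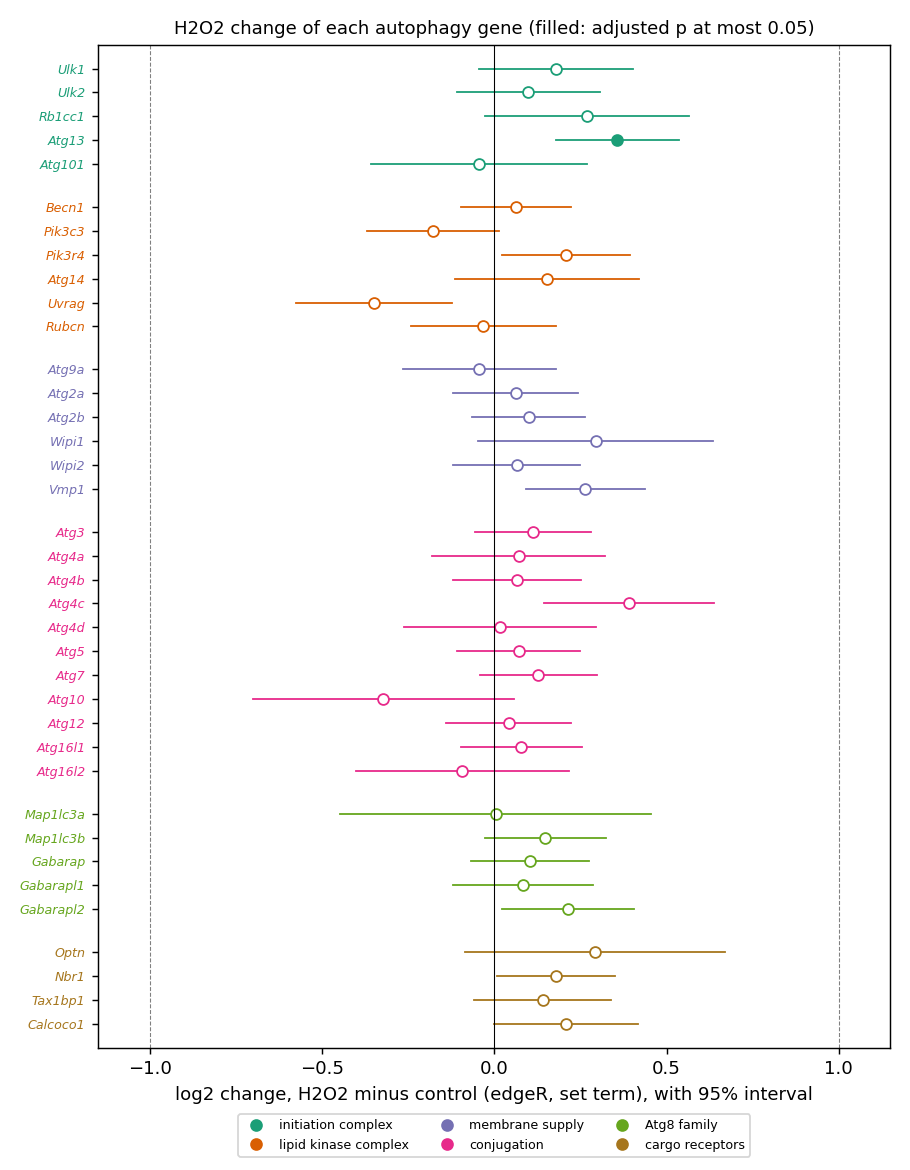
The log2 change (H2O2 minus control, edgeR with the set term) of each of the 37 autophagy genes, with its 95% interval as a bar, coloured by role. The filled point is Atg13, the 1 gene called, and no interval reaches the dashed lines at 2-fold.

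**Figure D2:**
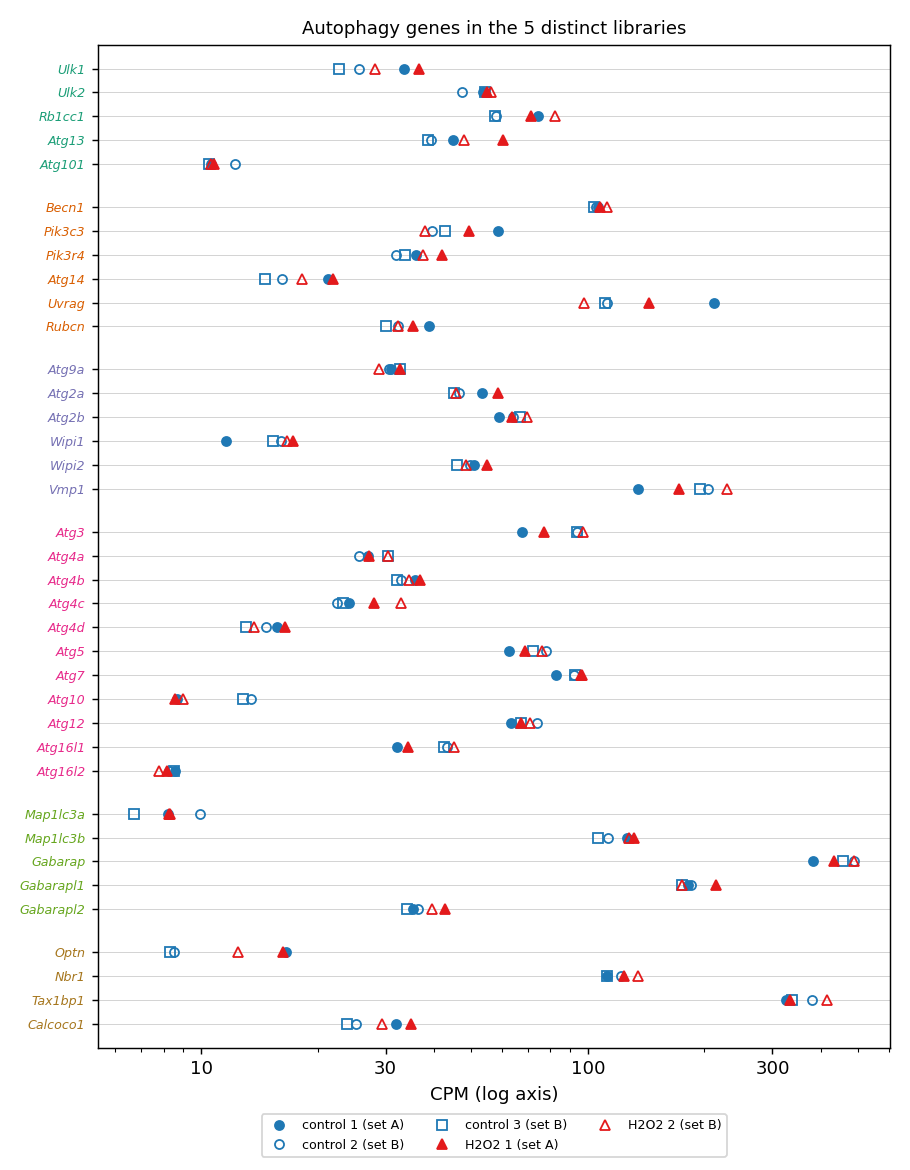
Normalized read counts (CPM, log axis) of the 37 genes in the 5 distinct libraries, controls in blue and H2O2 in red, with filled symbols for set A and open ones for set B. In Uvrag, Vmp1, Atg3 and Atg16l1 symbols sort by set more than by colour, and in Atg13 both red symbols lie to the right of the blue ones.

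The initiation complex joins the kinases ULK1 and ULK2 to the scaffolds FIP200 (Rb1cc1), ATG13 and ATG101. Of its 5 genes 1 rose and 0 fell, and the log2 changes ran from -0.04 (Atg101) to 0.36 (Atg13) with a median of 0.18, which was 0.033 without H2O2 replicate 2. Atg13, which binds ULK1 to the rest of the complex, lies on chromosome 2 (91674612 to 91710597, GRCm38.p6). It measured 44.7, 39.3 and 38.6 CPM in control replicates 1 to 3 and 60.2 and 47.9 CPM in H2O2 replicates 1 and 2. Both treated libraries stood above every control, although H2O2 replicate 2 exceeded control replicate 1 only slightly. The means were 40.9 ± 3.34 CPM (SD, n = 3) and 54.1 ± 8.67 CPM (SD, n = 2), and the fitted log2 change was 0.36 ± 0.075 SE (95% interval 0.18 to 0.54, adjusted p = 0.0373, edgeR), a fold of 1.28. Its change was 0.43 inside set A against 0.30 inside set B.

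This call was a narrow one. Atg13 had an adjusted p of 0.0797 without control replicate 2, 0.142 without control replicate 3, 0.0649 without H2O2 replicate 1 and 0.138 without H2O2 replicate 2 in edgeR, and stayed called without control replicate 1 (0.0420). It was not called with DESeq2 (0.111), with a block for the label number in place of the set (0.107), or in edgeR without either term (0.704, unadjusted p = 0.0356). Its log2 change lay between 0.29 and 0.43 in all 12 alternative fits. Some of those fits rest on the same contrast, as given below, so they are not separate checks.

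The other initiation genes did not pass the test. Rb1cc1, described here after its values were seen, gave 74.2, 57.8 and 57.5 CPM in control replicates 1 to 3 and 71.4 and 82.1 CPM under H2O2. The set A pair was level (a log2 change of -0.06), while the H2O2 library of set B stood above both of its controls (0.51). The pooled change was 0.27 ± 0.125 SE (adjusted p = 0.213, edgeR). Without control replicate 1 it was 0.50 (adjusted p = 0.00364) and without H2O2 replicate 1 it was 0.51 (0.00981), and without H2O2 replicate 2 it was -0.06 (0.728). The first pair of fits are 1 contrast, the 1 H2O2 library of set B against its 2 controls. The gene's own spread there comes from the controls, and the lone treated library is assumed to vary like them. Ulk1 had a log2 change of 0.18 and Ulk2 of 0.10, with adjusted p of 0.265 and 0.503 in edgeR.

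The promoter of Atg13 is shown because it is the 1 gene of the list called with H2O2, and that of Uvrag because its estimate was the lowest. Each is the 250 bases before a transcript start in RefSeq on GRCm38.p6. That start lies a few bases inside the outermost end of the gene given here, so the 3′ end of each window falls within the gene. Both are read 5′ to 3′ on the minus strand, at chr2:91710593-91710842 for Atg13 and chr7:99141145-99141394 for Uvrag. Capitals mark matches, on either strand, to TGANNNNGC. This is a relaxed form of the core of the antioxidant response element bound by NRF2, with the base after TGA left free. A match need not be that core, and both matches in Uvrag read TGAG on 1 strand.
Atg13: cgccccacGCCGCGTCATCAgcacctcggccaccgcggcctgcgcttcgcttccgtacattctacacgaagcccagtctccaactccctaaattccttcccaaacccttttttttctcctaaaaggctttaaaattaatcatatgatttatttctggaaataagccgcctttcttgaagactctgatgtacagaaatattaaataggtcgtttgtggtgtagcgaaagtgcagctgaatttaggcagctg
Uvrag: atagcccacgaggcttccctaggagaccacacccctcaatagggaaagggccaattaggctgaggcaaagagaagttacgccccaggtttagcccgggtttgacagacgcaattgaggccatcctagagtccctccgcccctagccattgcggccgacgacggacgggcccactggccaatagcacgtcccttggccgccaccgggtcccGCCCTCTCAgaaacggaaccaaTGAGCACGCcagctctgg
Both promoters held 2 matches, which overlap each other in Atg13. Promoters were on hand for 31 of the 37 genes, 38 promoters in all. TGANNNNGC occurred in 19 of these (50%), against 35.2% of 32851 promoters of the same length. The E-box CACGTG, bound by TFEB and related factors, occurred in 4 (10.5%, against 6.02%), those of Atg3, Atg5, Atg7 and Rubcn. The forkhead motif TGTTTAC occurred in 0, against 3.17%. These matches describe the letters of the windows and are not binding sites.

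The lipid kinase complex makes the phosphoinositide that recruits later proteins. Its 6 genes are Pik3c3 (the catalytic VPS34), Pik3r4 and Becn1, the autophagy subunit Atg14, the endosomal subunit Uvrag and the inhibitor Rubcn. None was called in either direction with H2O2 in edgeR, 2 had an unadjusted p under 0.05, and 3 changes were positive and 3 negative (2 and 4 with library totals alone), with a median of 0.015. That median lay between -0.062 (without H2O2 replicate 2) and 0.075 (without H2O2 replicate 1) when a library was left out. Uvrag, on chromosome 7 (98886742 to 99141167), measured 211.6, 112.0 and 110.8 CPM in control replicates 1 to 3 and 144.0 and 97.6 CPM in H2O2 replicates 1 and 2. The H2O2 library was the lower one within each set, but the groups overlapped because both set A libraries lay above the controls of set B.

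The fitted log2 change of Uvrag was -0.35 ± 0.095 SE (95% interval -0.58 to -0.12) with an adjusted p of 0.0692 in edgeR. It passed with library totals alone (-0.41, adjusted p = 0.0263) and in DESeq2 (-0.36, 0.0484). Set A gave -0.56 and set B -0.19, a difference with an adjusted p of 0.186 in edgeR. Pik3r4, the regulatory subunit VPS15, had a log2 change of 0.21 (adjusted p = 0.144, edgeR), with both H2O2 libraries (42.0 and 37.4 CPM) above the controls (31.9 to 35.9 CPM). Becn1, Atg14 and Rubcn gave 0.06, 0.15 and -0.03, and Pik3c3 gave -0.18 (adjusted p = 0.208, edgeR).

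Membrane supply to the phagophore rests on the scramblase Atg9a, the lipid transfer proteins Atg2a and Atg2b, the phosphoinositide readers Wipi1 and Wipi2 and the scramblase Vmp1 of the endoplasmic reticulum. None of these 6 genes was called with H2O2 in edgeR and 1 (Vmp1) had an unadjusted p under 0.05. Changes were positive for 5 of 6, and for 4 with library totals alone. Wipi1 had the largest estimate of the group. It measured 11.6, 16.1 and 15.4 CPM in control replicates 1 to 3 and 17.3 and 16.6 CPM under H2O2. The low value of control replicate 1 set it apart from the other 4 libraries, which lay close together. Its log2 change was 0.29 ± 0.144 SE (adjusted p = 0.237, edgeR), with 0.58 inside set A against 0.08 inside set B, and 0.07 without control replicate 1.

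Vmp1 was the most abundant of these 6 genes per length. It measured 134.6 CPM in control replicate 1, 204.8 and 194.8 CPM in control replicates 2 and 3, and 172.4 and 228.9 CPM in H2O2 replicates 1 and 2. H2O2 was higher within each set, yet H2O2 replicate 1 lay below the controls of set B. The log2 change was 0.26 ± 0.073 SE (adjusted p = 0.0719, edgeR), 0.36 inside set A against 0.20 inside set B. An exon of Vmp1 contains the microRNA gene Mir21a on the same strand (92 shared bases).

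The conjugation system activates Atg8 proteins with the E1 enzyme ATG7, passes them to the E2 enzyme ATG3 and attaches them with the ATG12-ATG5-ATG16L1 complex, in which ATG10 joins ATG12 to ATG5. The ATG4 proteases trim the Atg8 proteins first and release them later. Of the 11 conjugation genes 0 were called in either direction with H2O2 in edgeR, and 1 (Atg4c) had an unadjusted p under 0.05. Changes were positive for 9 and negative for 2 (Atg10 and Atg16l2), with a median of 0.07. With library totals alone, Atg4d and Atg12 also turned negative and the median was 0.0052. Without control replicate 3 it was 0.045.

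Atg4c, a protease of the ATG4 family, had the largest positive estimate of all 37 genes. Its values were 24.1, 22.4 and 23.3 CPM in control replicates 1 to 3 and 28.0 and 32.8 CPM in H2O2 replicates 1 and 2. The controls lay close together and both H2O2 libraries were above them. The log2 change was 0.39 ± 0.104 SE (95% interval 0.15 to 0.64), with an adjusted p of 0.0652 in edgeR, so it was not called. Without control replicate 1 it was 0.51 (adjusted p = 0.0155, edgeR) and without H2O2 replicate 1 it was 0.52 (0.0304). These are 1 contrast given by both fits, the 1 H2O2 library of set B against its 2 controls, in which only the controls supply the gene's own spread. Without H2O2 replicate 2 it was 0.21 (0.385). The other proteases Atg4a, Atg4b and Atg4d had log2 changes of 0.07, 0.07 and 0.02.

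Atg10, described after its values were seen, had the lowest estimate of the group. It measured 8.66, 13.5 and 12.9 CPM in control replicates 1 to 3 and 8.57 and 9.0 CPM under H2O2. Control replicate 1 sat with the treated libraries, and the log2 change was -0.01 inside set A against -0.55 inside set B. The pooled log2 change was -0.32 ± 0.160 SE with an adjusted p of 0.242 in edgeR. Atg7, Atg3, Atg5, Atg12 and Atg16l1 had log2 changes between 0.04 (Atg12) and 0.13 (Atg7). Atg16l2, the only gene with both H2O2 libraries below every control, measured 8.28 to 8.54 CPM in controls and 7.77 and 8.16 CPM under H2O2, with a log2 change of -0.09 (adjusted p = 0.687, edgeR).

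The Atg8 family is what the conjugation system attaches, and it can be so because ATG4 cuts each precursor after one glycine. The last 30 coding bases of the 5 genes (GENCODE release M21, GRCm38.p6, up to and including the stop codon) are shown because they hold this site and differ between the members. Capitals mark the glycine codon.
Map1lc3a: tacgcctcccaagaaaccttcGGCttctga
Map1lc3b: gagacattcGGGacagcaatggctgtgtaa
Gabarap: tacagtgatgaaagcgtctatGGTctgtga
Gabarapl1: tacagtgatgaaagtgtctatGGAaaatga
Gabarapl2: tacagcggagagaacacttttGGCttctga
The glycine is codon 120 in both LC3 genes and codon 116 in the 3 GABARAP genes. A single codon (1) precedes the stop codon after it in 4 members, and 5 codons follow the glycine in Map1lc3b. Coding sequences were 74.9% identical between Gabarap and Gabarapl1 and 74.7% between Map1lc3a and Map1lc3b, and between 50.6% and 64.5% in the other pairs. Each pair was aligned from end to end, with 1 principal transcript a gene, and no aligned run of identical coding bases exceeded 17.

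Per length, Gabarap was the most abundant of the 37 genes. Its median over the 5 libraries was 338 CPM per kb of its longest principal transcript (283 to 362). Gabarapl1 followed in the family with 99.4 (96.3 to 118), then Map1lc3b with 49.9 (42.0 to 51.9), Gabarapl2 with 21.7 (20.3 to 25.5) and Map1lc3a with 7.44 (6.03 to 8.91). The ranges of these 5 genes did not overlap. Outside the family the cargo receptor Tax1bp1 had 102 CPM per kb (98.8 to 127), which overlapped Gabarapl1, and Atg16l2 was the lowest of the list with 1.28. This order depends on the transcript that supplies the length, 6459 bases for Atg16l2. In CPM alone Atg16l2 (7.77 to 8.54) lay within the range of Map1lc3a (6.71 to 9.91).

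With H2O2, 0 of these 5 genes were called in edgeR and 1 (Gabarapl2) had an unadjusted p under 0.05. All 5 log2 changes were positive, 4 of them with DESeq2 size factors or with library totals alone, where Map1lc3a turned negative. Without control replicate 1 or H2O2 replicate 1, Map1lc3a and Gabarapl1 were negative and the median of the 5 changes was 0.042 or 0.052, against 0.10. Gabarapl2 had the largest. It measured 35.4, 36.3 and 34.0 CPM in control replicates 1 to 3 and 42.7 and 39.6 CPM under H2O2, both above every control. Its log2 change was 0.21 ± 0.081 SE (95% interval 0.02 to 0.41, adjusted p = 0.142, edgeR). Map1lc3b, the LC3 gene most used as a marker of autophagosomes, measured 106 to 126 CPM in controls and 131 and 127 CPM under H2O2, a log2 change of 0.15 (adjusted p = 0.246, edgeR). Gabarap, Gabarapl1 and Map1lc3a had log2 changes of 0.10, 0.08 and 0.0043. Gabarapl1 was 0.24 inside set A against -0.04 inside set B.

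Among the listed cargo receptors, Optn and Tax1bp1 bind ubiquitin on damaged mitochondria and bacteria, Nbr1 binds ubiquitinated aggregates and peroxisomes, and Calcoco1 has been described as a receptor for the endoplasmic reticulum and Golgi. None of the 4 was called with H2O2 in edgeR, and 1 (Nbr1) had an unadjusted p under 0.05. All 4 log2 changes were positive under each of the 3 scalings, with a median of 0.19. Without H2O2 replicate 2, 3 of the 4 were positive (Optn turned negative) and the median was 0.082. Optn measured 16.6 CPM in control replicate 1, 8.52 and 8.29 CPM in control replicates 2 and 3, and 16.3 and 12.4 CPM in H2O2 replicates 1 and 2. Both set A libraries were high irrespective of treatment, and in set B the H2O2 library exceeded its controls.

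Optn had a log2 change of 0.29 ± 0.159 SE (adjusted p = 0.282, edgeR), -0.03 inside set A against 0.56 inside set B. Nbr1 measured 112 to 122 CPM in controls and 124 and 135 CPM under H2O2, a log2 change of 0.18 (adjusted p = 0.165, edgeR). Tax1bp1 and Calcoco1 had log2 changes of 0.14 and 0.21 (adjusted p of 0.325 and 0.182 in edgeR). Their groups overlapped.

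**Figure D3:**
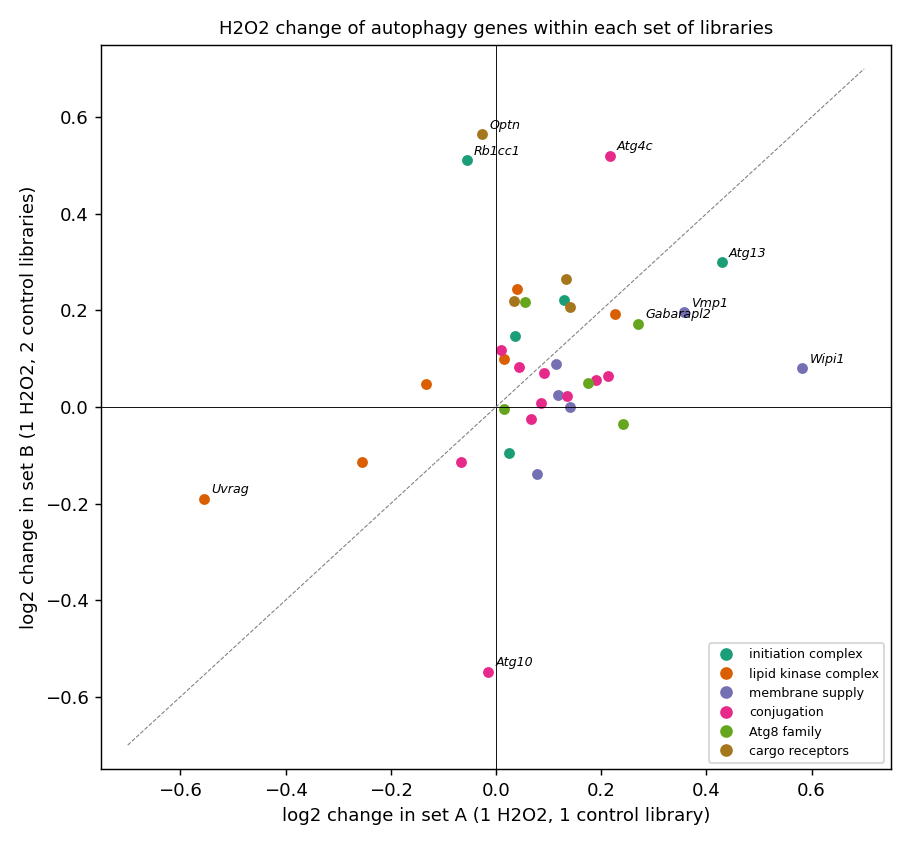
The log2 change of the 37 genes within set A (x axis, 1 H2O2 against 1 control library) and within set B (y axis, 1 H2O2 against 2 control libraries), coloured by role, with the dashed line of equal change. Atg13 lies in the upper right (0.43 and 0.30), Uvrag in the lower left (-0.56 and -0.19), and Rb1cc1, Optn and Atg10 lie near 0 on the x axis only.

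The change with H2O2 had the same direction in both sets for 28 of the 37 genes, against 65.5% of all genes. A test of whether it differed between the sets called 0 of the 37 genes in edgeR, against 0.0164% of all genes. At an unadjusted p under 0.05 there were 4 (Rb1cc1, Uvrag, Gabarapl1 and Optn), against 13.7% of all genes. In DESeq2 the same test called 0 of the 37, with 0 at an unadjusted p under 0.05, and 1.18% of the genes it tested. Rb1cc1 had the lowest p, with a log2 difference of -0.57 (set A minus set B, adjusted p = 0.0929, edgeR). That fit has 1 residual degree of freedom, from control replicates 2 and 3.

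More of the 37 genes differed between the sets than with H2O2. In the same edgeR fit, 8 were higher in set A (Ulk1, Atg13, Pik3c3, Atg14, Uvrag, Atg2a, Optn and Calcoco1) and 4 were lower (Vmp1, Atg3, Atg16l1 and Gabarap), against 19.1% and 16.9% of all genes (36% either way). The set difference was larger in size than the H2O2 change for 24 of the 37 genes, against 64% of all genes. Its median size was 0.15 on the log2 scale, against 0.27 over all genes. Uvrag had the largest difference, 0.77 ± 0.093 SE (adjusted p = 0.00116, edgeR). Optn followed with 0.73 ± 0.157 (0.0121) and Vmp1 with -0.50 ± 0.075 (0.00290). The lipid kinase genes Pik3c3 and Atg14 were also higher in set A (0.45 and 0.38), and the conjugation genes Atg3 and Atg16l1 were lower (both -0.41).

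Uvrag, Vmp1, Pik3c3, Atg3 and Atg16l1 were called between the sets in all 9 alternative fits of this comparison. Optn was not called without control replicate 1 (0.39, adjusted p = 0.159, edgeR), and Ulk1 neither without control replicate 1 (0.0715) nor without control replicate 3 (0.0538). Of the 9 fits, Atg13 and Atg14 were called in 3, and Atg2a, Calcoco1 and Gabarap in 4. Of the 5 fits that left out a library, Atg13 and Atg2a were called in the one without control replicate 1, and Atg14, Calcoco1 and Gabarap in the one without H2O2 replicate 1. The counts called higher in set A were 5, 4 and 3 without control replicates 1, 2 and 3 and 5 without H2O2 replicate 2, and 4 in DESeq2. What separates the sets, beyond the Y-linked counts, is not given by the labels. In edgeR with all libraries, marker lists also differed between the sets. All 12 genes of dividing cells were called higher in set A. Called lower were 8 of 10 neutrophil and granulocyte markers and 7 of 8 mast cell and basophil markers. Of 9 macrophage and monocyte markers tested 5 were higher and 1 lower, and of 9 dendritic cell markers 3 and 2. The part of these marker differences in those of the autophagy genes was not tested.

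**Figure D4:**
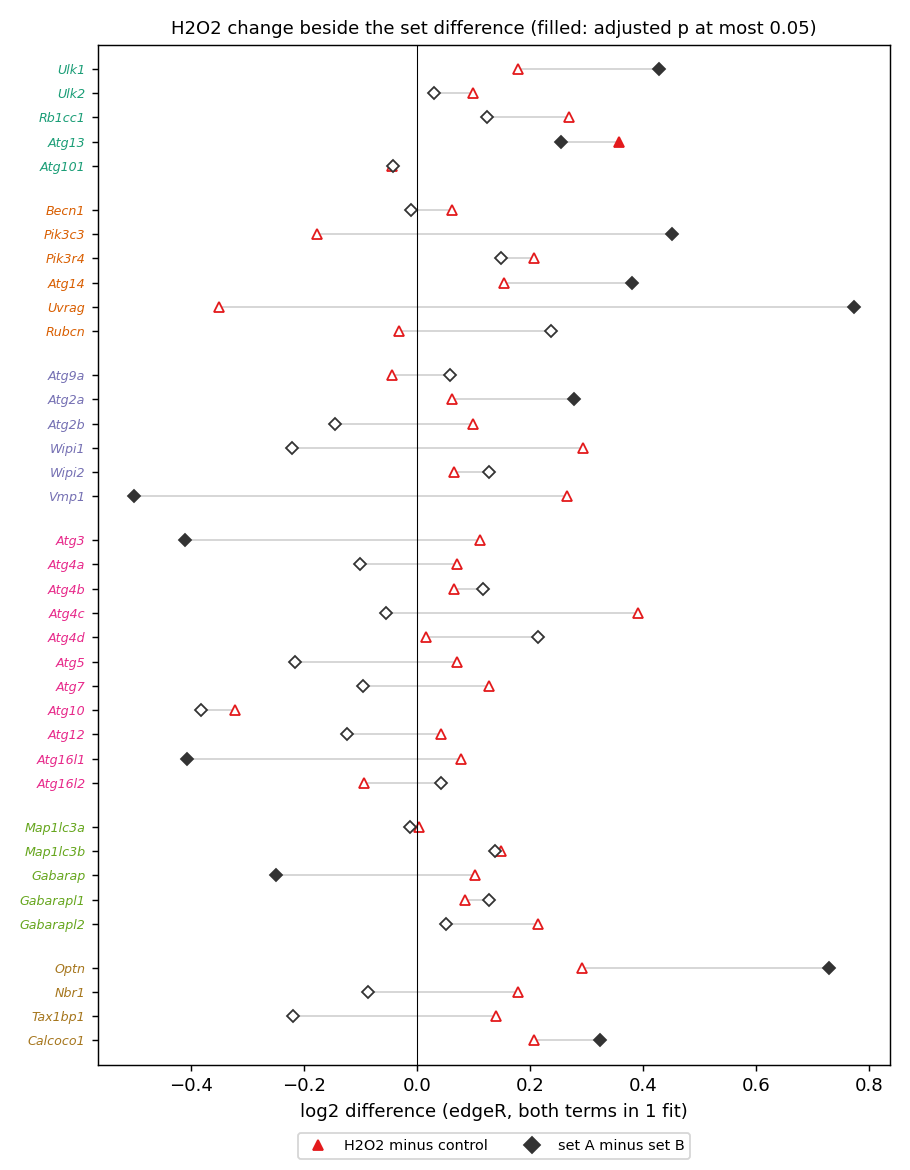
The log2 change with H2O2 (triangles) beside the log2 difference of set A minus set B (diamonds) for the 37 genes, both from 1 edgeR fit, filled where the adjusted p is at most 0.05. The filled diamonds are 12 genes, with Uvrag at 0.77 and Vmp1 at -0.50, and the filled triangle is Atg13.

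The genes around this machinery were read from 4 lists with 66 genes, of which 63 had enough counts to be tested. With H2O2, 4 rose and 1 fell in edgeR, against 3.93% and 4.61% of all genes, and the median log2 change was 0.08. Of the 17 other genes of the phagophore and of fusion with the lysosome 2 rose and 0 fell. Plekhm1, an adaptor between RAB7, the HOPS tether and Atg8 proteins, measured 87.3, 94.0 and 86.8 CPM in control replicates 1 to 3 and 112.2 and 122.6 CPM under H2O2. Its log2 change was 0.41 ± 0.072 SE (adjusted p = 0.0259, edgeR). Vps18, a core subunit of HOPS, measured 60.2, 62.5 and 60.4 CPM in controls and 74.9 and 79.3 CPM under H2O2, a log2 change of 0.35 ± 0.068 (0.0322). In both genes the controls lay close together and the treated libraries above them.

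Of the 17 tested receptors outside the main list 2 rose and 1 fell. Sqstm1, which encodes the ubiquitin receptor p62 and is also a target gene of NRF2, measured 688.2, 460.3 and 398.3 CPM in control replicates 1 to 3 and 939.0 and 547.0 CPM under H2O2. It was higher with H2O2 within each set and higher in set A (0.72 ± 0.084, adjusted p = 0.000984, edgeR), so the groups overlapped. Its log2 change with H2O2 was 0.39 ± 0.084 (0.0383). Bnip3l, a mitophagy receptor of the outer mitochondrial membrane, measured 198.5, 166.8 and 162.1 CPM in controls and 245.2 and 227.1 CPM under H2O2, a log2 change of 0.40 ± 0.071 (0.0260). Stbd1, a glycogen-binding receptor, measured 5.29, 5.98 and 6.10 CPM in controls and 2.72 and 2.85 CPM under H2O2, a log2 change of -1.03 ± 0.172 (0.0241). It was the largest of the 5 changes, on 44 to 100 counts a library.

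Among 12 alternative fits Stbd1 was called in 8, Plekhm1, Sqstm1 and Bnip3l in 5 and Vps18 in 4. Their log2 changes moved less, from -1.09 to -0.96 for Stbd1, from 0.34 to 0.44 for Plekhm1, from 0.28 to 0.37 for Vps18, from 0.33 to 0.53 for Sqstm1 and from 0.30 to 0.47 for Bnip3l. The 12 fits are not separate checks, since some share a contrast. Without control replicate 1 or without H2O2 replicate 1, the change comes from set B alone. The replicate block and the fit without control replicate 3 both rest on the same pairs, control and H2O2 replicates 1 and 2 matched by number. No call was made in edgeR without the set term, without a filter on low counts (adjusted p from 0.0526 to 0.0739), without control replicate 3 (0.0634 to 0.145) or without H2O2 replicate 2 (0.149 to 0.189). Without control replicate 2, Plekhm1 (0.0508), Vps18 (0.0822) and Bnip3l (0.0660) were not called, and without H2O2 replicate 1, Sqstm1 (0.0690). DESeq2 with the set term called 4 of them and not Vps18 (0.0760). With the label number as a block, Stbd1 alone was called (0.0374).

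Of the 23 tested upstream regulators, which include mTORC1, AMPK, TSC, sestrin and Rag genes, 0 were called in edgeR and 6 had an unadjusted p under 0.05. Of the 6 transcription factors of autophagy genes 0 were called in edgeR and 1 (Mitf) had an unadjusted p under 0.05. Tfeb and Tfe3, which are controlled largely by their place in the cell, had log2 changes of 0.09 and 0.07. Mitf, of the same family, measured 84.5, 67.1 and 58.0 CPM in control replicates 1 to 3 and 93.4 and 104.0 CPM under H2O2. Both treated libraries lay above the controls. Its log2 change was 0.48 ± 0.137 SE (adjusted p = 0.0758, edgeR), with 0.73 inside set B against 0.14 inside set A. DESeq2 called it (adjusted p = 0.0298), the 1 transcription factor it called, and called 0 of the upstream regulators.

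Reads of some of these genes may be shared, since no source used here gives the counter or its strand setting. By GENCODE, 13 of the 37 genes share exon bases with a gene on the opposite strand and 2 with one on the same strand. The longest shares were 3104 bases of Becn1 with Cntd1, 1832 bases of Atg9a with Gm29253, 1589 bases of Uvrag with Gm45187 and 1405 bases of Atg4d with Kri1. Values that were not whole numbers occurred in 3 of the 37 genes (Becn1, Pik3c3 and Atg4d).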

How the data were processed

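Transcript counts of mouse immature dendritic cells, 3 control and 3 H2O2 samples by the labels, were used as the authors deposited them. Per the file headers, the authors deposited an estimated count for each gene without normalization. In a library, 8.38% to 9.03% of values were not whole. HISAT, Bowtie2 and GRCm38.p6 are named in the submitters' processing notes, while no source used here gives the counter, annotation release or strand setting. Symbols came from a RefSeq table of GRCm38.p6, which matched 17520 of 17567 rows (99.73%). A table of the whole series was not used.

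Counts were rounded. The filterByExpr function of edgeR (minimum count 10, minimum total 15) kept 12209 genes. TMM factors scaled the libraries. CPM are edgeR's read counts relative to the scaled library size, but marker sums use library totals. H2O2 was compared with control by edgeR's quasi-likelihood F test with the set as a term, leaving 2 residual degrees of freedom, the set being A where 4 Y-linked genes held at least 100 counts. A gene was called at a p of at most 0.05 after Benjamini-Hochberg adjustment over all genes tested. The SE is the absolute log2 change over the square root of F. With 3 libraries against 2, single-value permutation tests have little resolution and were not used. The fits were tested on simulated data. Alternatives were no set term, a replicate block, DESeq2 size factors, library totals alone, DESeq2, no filter and each library left out. DESeq2 with no set term was added after seeing the data.

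Values in every library are given for genes called, for the largest change in each role group, for the 3 largest called set differences and for called genes of the other lists. Rb1cc1, Atg10 and others were added after their values were seen. The 37 genes and all lists were chosen with earlier results of these data known. Each gene's length is that of its longest principal transcript. Library totals were 16232604 to 16672491 counts. Tools were Python 3.11.15 with Biopython 1.88 and matplotlib 3.10.9, and R 4.3.3 with DESeq2 1.42.0, limma 3.58.1 and edgeR 4.0.16.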

Additional observations from a re-analysis of the deposited data

How the results depend on the processing

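Atg13 was called in edgeR with the set term, with DESeq2 size factors and without control replicate 1, and in none of the other 10 alternatives. The number of autophagy genes called higher was 0 without the set term, with the replicate block, library totals alone, DESeq2, no filter, and DESeq2 with no set term, and 0 to 3 when a library was left out. The number called lower was 1 (Uvrag) with library totals alone and with DESeq2, and 0 to 0 when a library was left out. Across all genes, the 480 called higher became 0 without the set term, 220 with the block, 60 with no filter and 57 in DESeq2 with no set term, and 1 to 1248 when a library was left out. The 563 called lower became 0, 334, 42 and 34, 910 with library totals alone, and 0 to 816 when a library was left out. The share of calls that were higher was 46% with TMM, 41.4% with DESeq2 size factors and 29.7% with library totals alone (384 higher, 910 lower), where the median of all genes was -0.06.

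Between the sets, genes of the list called higher in set A numbered 4 in DESeq2 and 3 to 8 when a library was left out, and those called lower 3 to 6. All genes called higher numbered 1419 to 2312 and lower 1432 to 2095. The 2 genes whose change differed between the sets became 0 with DESeq2 size factors, 48 with library totals alone, 44 in DESeq2 and 0 with no filter. No library could be left out of that fit.

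The replicate block used the label number (no suffix, r1, r2). Deviations of same-numbered samples correlated at 0.81 and 0.71 over 2 pairs, and crossed samples at -0.81 and -0.71. With 2 H2O2 libraries, each deviates from their mean by the reverse of the other. The crossed values are therefore fixed by the same-numbered ones and are no separate result. The label number also parts the sets by their Y-linked counts, and within these 2 pairs a shared number and a shared set cannot be told apart. Control replicate 3 belongs to set B under a number of its own (r2) among the libraries counted, and it is in neither pair. The block called 0 of the 37 genes.

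Direction reversed in some fits, for Rb1cc1 and Optn despite log2 changes of 0.27 and 0.29 and otherwise for changes under the median size of 0.11. Rubcn was 0.0029 without the set term. Map1lc3a was -0.12 with the block, -0.0071 with DESeq2 size factors, -0.060 with library totals alone, -0.0052 in DESeq2 and -0.0082 in DESeq2 with no set term. Atg4d was -0.019 with the block and -0.048 with library totals alone, where Becn1 was -0.0029, Atg2a -0.0029 and Atg12 -0.023. When a library was left out, ranges that crossed 0 were -0.14 to 0.049 (Rubcn), -0.0090 to 0.14 (Atg2a), -0.032 to 0.066 (Atg4d), -0.13 to 0.15 (Map1lc3a), -0.044 to 0.24 (Gabarapl1), -0.10 to 0.022 (Atg101), -0.058 to 0.51 (Rb1cc1), -0.15 to 0.076 (Atg9a) and -0.029 to 0.57 (Optn). Without either library of set A the fit compares set B alone. The causes were not tested.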

Other observations

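Among the other pathway genes, the difference between the sets was larger in size than the change with H2O2 for 42 of 63, near the 64% of all genes. Of the 63 tested, 19 were higher and 10 lower in set A in edgeR, against 19.1% and 16.9% of all genes. The genes named here were picked by these values. Rptor, the substrate adaptor of mTORC1, measured 114.8 and 117.6 CPM in the control and the H2O2 library of set A, against 51.9, 52.1 and 55.3 CPM in the libraries of set B, a log2 difference of 1.12 ± 0.066 SE. Prkab2, a regulatory subunit of AMPK, measured 14.6 and 12.7 CPM in set A and 3.87, 3.48 and 3.63 CPM in set B (1.92 ± 0.141). Sesn3, a sestrin that acts on mTORC1, measured 10.2 and 9.87 CPM in set A and 2.96, 1.83 and 2.59 CPM in set B (2.02 ± 0.208). Mtor itself was higher in set A by 0.50 ± 0.067. In each of these genes the H2O2 library resembled the control of its own set, and the log2 change with H2O2 lay between -0.13 and 0.06.

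Bnip3, a mitophagy receptor, was lower in set A by the same measure (-0.92 ± 0.084 SE), with 30.2 and 30.8 CPM in set A and 55.8, 52.3 and 62.2 CPM in set B. Snap29, a SNARE of fusion with the lysosome, was lower as well (-0.63 ± 0.071). All 6 differences were called in each of the 9 alternative fits of this comparison. Marker lists of cell types also differed between the sets, as given above, and their part in these 6 differences was not tested. The labels give all mice as male and one strain, and the source of the difference between the sets was not tested.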
